A study of Mus musculus with 15 samples.

Results

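Vitamin A circulates as retinol bound to its carrier RBP4, and the membrane receptor STRA6 passes it into cells, where retinal dehydrogenases of the ALDH1A family complete its conversion to retinoic acid. Retinoic acid is carried by the CRABP proteins, acts through the nuclear receptors RAR and RXR on target genes such as Rarb, and is broken down by the CYP26 enzymes. In the lung the pathway is known for its part in branching and alveolar formation. The genes described here are 9 of this pathway: Rbp4 and Stra6 (delivery and uptake), Crabp1 and Crabp2 (intracellular binding), Aldh1a1, Aldh1a2 and Aldh1a3 (synthesis), Cyp26b1 (breakdown) and Rarb (receptor). They were taken as every non-control probe whose gene name on the array was one of the 9, which gave 11 probes of 55681 and 9 gene names of 36282. Of the 9 genes, 7 passed the filter on low signal; Crabp1 and all 3 probes of Rarb did not.

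RNA was measured on 15 mouse arrays from 2 lines labelled as non-small cell lung cancer, LSZ2 and LSZ4, each given a control hairpin (shGFP or shLacZ) or 1 of 2 hairpins against Siva1 (shSiva1 or shSiva2). Siva1 is a p53 target gene whose product is known for promoting cell death. There were 1 LSZ2 shGFP array and 2 arrays in each of the other 7 line and hairpin groups, so 7 control and 8 shSiva arrays. Cells were grown in DMEM with 10% serum and transduced with virus; all but the shLacZ cells were selected in puromycin for 3 days, then plated for 2 days. The shGFP hairpin was in pLKO.1, shLacZ in LL37 and both Siva hairpins in pLKO TRC2.0. Whether replicate arrays of a group stand for separate cultures is not given in the labels, and p-values therefore reflect array-to-array spread, which may be technical. The 7 control arrays were on 1 slide and the 8 shSiva arrays on another, so slide, vector and arm cannot be told apart. Comparisons between the lines and between shSiva1 and shSiva2 lie within a slide, and shSiva1 and shSiva2 also share vector and selection.

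The 75th percentile of signal was between 428 and 1029 intensity units per array, lowest on both LSZ4 shGFP arrays, 49.0% to 60.6% of spots were well above background, and no spot was saturated. Siva1 was 2.52 lower on the log2 scale on the shSiva arrays (fitted difference -2.52, SE 0.26, limma adjusted p = 3.19e-05), with 13.0% of the control level left under shSiva1 and 23.4% under shSiva2. Of 6 epithelial markers 5 were well above background on all 15 arrays, whereas the lung markers Nkx2-1, Sftpc and Foxj1 and the liver markers Alb, Apoa1 and Ahsg were so on 0. The other lung markers, Sftpb and Scgb1a1, were so on 11 arrays (7 control, 4 shSiva) and 8 arrays (4 and 4). The fibroblast markers Pdgfra, Pdgfrb, Thy1 and Dcn and the endothelial Cdh5 were above background on 0 arrays too, while the fibroblast marker Col1a2 and Kdr, Pecam1 and Cd3e were on all 15, and Col1a1 on 5 (1 control, 4 shSiva). Of the other blood and immune markers, Ptprc was so on 8 arrays (3 control, 5 shSiva) and Cd68 on 3 (0 control, 3 shSiva). Cd68 was not tested and is not in the sums that follow. Summed over tested markers, the ranges of the control and shSiva arrays overlapped for each list (epithelial 1200 to 2930 and 1190 to 2440 times the 75th percentile). The fibroblast sums ran from 0.0602 to 0.146 and from 0.0471 to 0.205, the endothelial from 4 to 12.1 and from 3.40 to 9.73, the blood and immune from 0.715 to 1.86 and from 0.714 to 2.01, and the lung from 0.0705 to 0.290 and from 0.0253 to 0.482. Epcam was 0.68 higher (limma adjusted p = 0.00988) and Pecam1 0.66 lower (fitted -0.66, limma adjusted p = 0.0173) on the shSiva arrays, and their part in the results was not tested.

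Retinoic acid receptors are known to bind pairs of AGGTCA-like hexamers, of which a direct repeat with a 5-base gap (DR5) is the classical form. RefSeq promoters (GRCm38.p6, 250 bases before to 50 after a start) were found for 7 of the 9 genes, 12 in all, with 4 for Stra6. The DR5 pattern was found in 1 of these 12, that of Rarb (bases -53 to -37 from the start), and in 32 of 32851 mouse promoters (0.0974%). The promoters of Stra6 (its most upstream start) and Aldh1a2, the genes with the largest shifts on the shSiva arrays, are shown beside that of Rarb, in which capitals mark the DR5 match.

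Stra6 (chr9:58128838-58129137, plus strand): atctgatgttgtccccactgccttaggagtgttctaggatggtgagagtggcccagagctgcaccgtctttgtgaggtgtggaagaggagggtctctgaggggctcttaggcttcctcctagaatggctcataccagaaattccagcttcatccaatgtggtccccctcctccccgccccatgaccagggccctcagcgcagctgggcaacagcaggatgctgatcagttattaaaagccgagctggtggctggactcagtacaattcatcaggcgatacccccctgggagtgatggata

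Aldh1a2 (chr9:71215539-71215838, plus strand): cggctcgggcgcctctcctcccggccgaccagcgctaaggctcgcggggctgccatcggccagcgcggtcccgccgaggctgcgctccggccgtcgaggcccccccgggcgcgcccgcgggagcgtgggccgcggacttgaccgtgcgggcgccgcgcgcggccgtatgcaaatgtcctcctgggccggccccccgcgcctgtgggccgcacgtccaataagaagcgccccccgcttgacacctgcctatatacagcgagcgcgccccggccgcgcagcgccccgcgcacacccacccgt

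Rarb (chr14:16575427-16575726, minus strand): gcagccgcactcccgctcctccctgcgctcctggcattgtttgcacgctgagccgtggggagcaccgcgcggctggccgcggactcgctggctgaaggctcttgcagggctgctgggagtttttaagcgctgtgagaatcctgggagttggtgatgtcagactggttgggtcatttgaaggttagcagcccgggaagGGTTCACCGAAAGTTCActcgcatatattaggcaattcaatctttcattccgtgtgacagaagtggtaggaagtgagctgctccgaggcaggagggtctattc

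On both strands, AGGTCA alone was in 0 of the 12 promoters and in 16.3% of all promoters; the DR1 pattern was in 0 of 12 and 0.222%, and DR2 in 0 of 12 and 0.268%. DR5, DR1 and DR2 hold AGGTCA-like hexamers and can overlap AGGTCA. The letters GGGCGG were in 6 of 12 promoters against 35.7% of all, and TATAAA in 2 of 12 against 13.6%. A p53 decamer was matched in 1 of 12, that of Crabp1, against 8.36%. No match says only that these letters are not within this window. Cyp26a1, which encodes another retinoic acid hydroxylase, also held DR5, as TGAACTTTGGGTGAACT. Neither Rarb nor Cyp26a1 was well above background on any of the 15 arrays.

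Levels below are log2 signal relative to the 75th percentile of the array, so that 0 is the level of that percentile; they compare arrays for 1 probe and not one gene with another. Each gene had 1 probe of 60 bases and 1 spot, apart from Rarb, and positions are on mm9. The 9 genes were chosen by pathway with their measured differences between shSiva and control arrays already known, so those differences are given as description with no test. Of all genes tested, 9.97% were called between the arms (4.29% higher and 5.68% lower with shSiva), and the median gene was at -0.12. The share called was 0.939% in LSZ2 alone, 4.57% in LSZ4 alone, 25.9% for shSiva1 and 12.2% for shSiva2 against control; nothing is read from these for the 9 genes. In these bulk RNA samples, fewer cells that express a gene and less of its RNA per cell cannot be told apart.

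**Figure D1:**
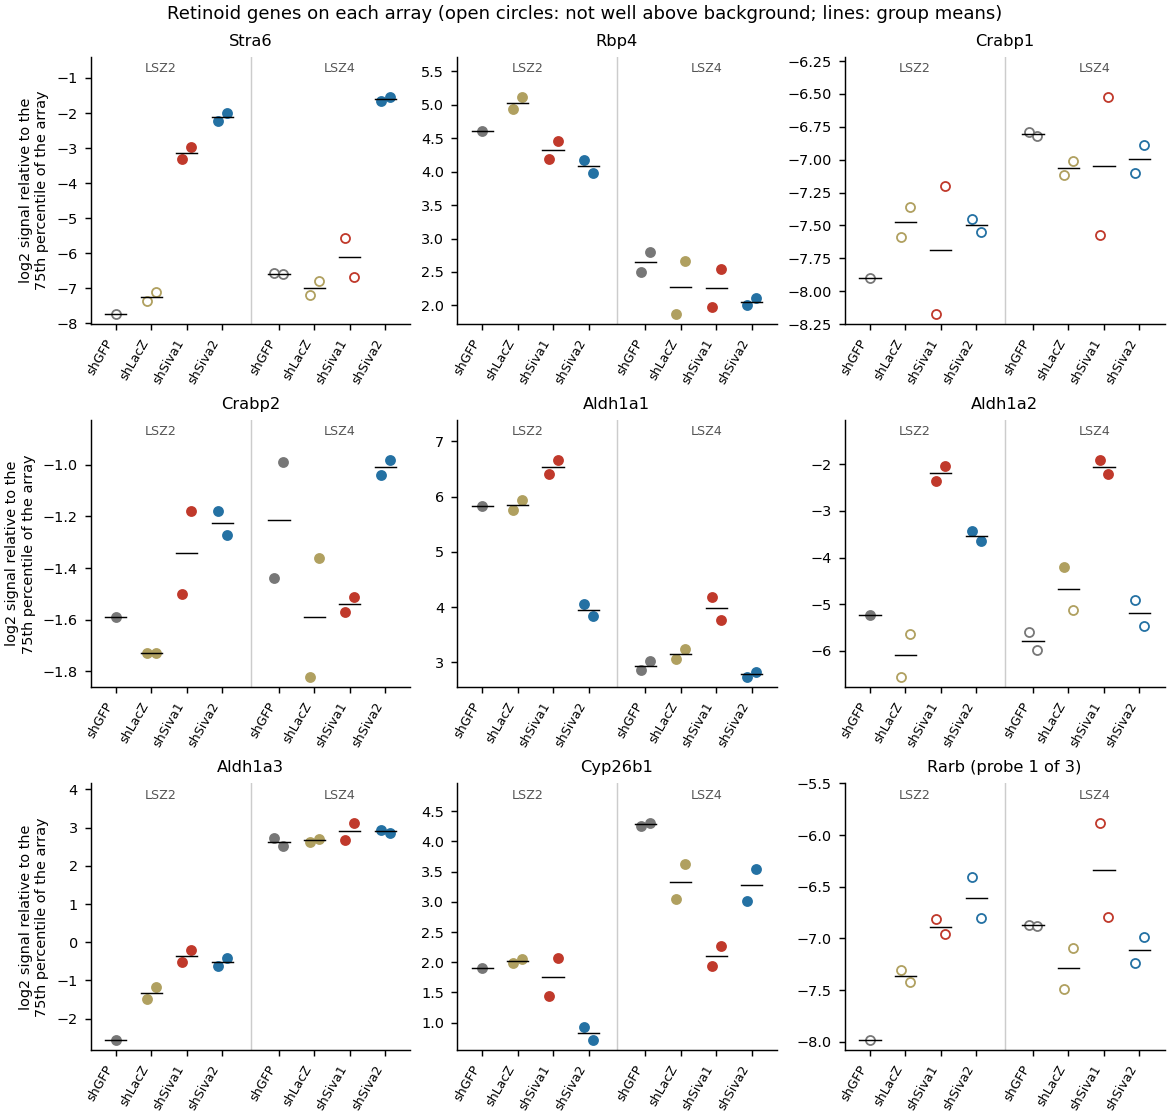
Log2 signal of each of the 9 genes relative to the 75th percentile of its array (vertical axis), for each array by line and hairpin (horizontal axis); open circles are not well above background and horizontal lines are group means. Stra6 reached -1.53 on an LSZ4 shSiva2 array but stayed below -5.5 on the LSZ4 shSiva1 arrays, and Crabp1 and Rarb were open on every array.

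Rbp4, the plasma retinol carrier, was bright in both lines (chr19:38191120-38191179). In LSZ2 its level was 4.61 on the shGFP array, 4.93 and 5.12 with shLacZ, 4.19 and 4.46 with shSiva1 and 4.18 and 3.98 with shSiva2. The LSZ4 levels were 2.50 and 2.80 with shGFP, 1.88 and 2.66 with shLacZ, 1.97 and 2.55 with shSiva1 and 2.00 and 2.11 with shSiva2. Every LSZ2 array was above every LSZ4 array. Within LSZ2 all 4 shSiva arrays were below all 3 controls, and within LSZ4 the arms overlapped. The shSiva minus control difference was -0.68 (SE 0.24) in LSZ2 and -0.30 (SE 0.22) in LSZ4.

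Stra6, the retinol receptor, had the largest shift of the 7 genes (chr9:58001701-58001760). Its intensity ran from 4.22 to 225 units over the 15 arrays. In LSZ2 its level was -7.72 with shGFP, -7.35 and -7.12 with shLacZ, -3.30 and -2.96 with shSiva1 and -2.23 and -2.00 with shSiva2. Its LSZ4 values were -6.56 and -6.60 with shGFP, -7.19 and -6.79 with shLacZ, -5.56 and -6.67 with shSiva1 and -1.65 and -1.53 with shSiva2. None of the 7 control arrays and neither LSZ4 shSiva1 array was well above background, and the other 6 shSiva arrays all were. Those 6 were above every control array, and of the LSZ4 shSiva1 arrays 1 lay above and 1 within the range of the LSZ4 controls.

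Against such unmeasured controls a fold is given as an approximate lower bound. Each control array was set at its dimmest signal still counted as well above background, or at its own level where higher. That signal is no strict limit: on LSZ4 shGFP replicate 1 it was -4.57, and another gene, Fabp5, at -4.48 was not counted. By this bound Stra6 was at least 5.17-fold above control with shSiva1 in LSZ2, at least 10.4-fold with shSiva2 in LSZ2 and at least 9.12-fold with shSiva2 in LSZ4. No fold is given for shSiva1 in LSZ4, where both sides were below background. Over both lines the fitted difference was 3.79 (SE 0.67), a value that rests on the dim controls: it was 1.52 with the normexp background correction and 1.70 with all levels raised to a floor of -4.57. Without LSZ4 shSiva1 replicate 1 or 2 it was 4.14 or 4.33.

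Crabp2, which delivers retinoic acid to its nuclear receptor, stayed within a narrow range (chr3:87757207-87757266). In LSZ2 it was at -1.59 with shGFP, -1.73 and -1.73 with shLacZ, -1.50 and -1.18 with shSiva1 and -1.18 and -1.27 with shSiva2. On the LSZ4 arrays it was at -1.44 and -0.99 with shGFP, -1.82 and -1.36 with shLacZ, -1.57 and -1.51 with shSiva1 and -1.04 and -0.98 with shSiva2. All 4 LSZ2 shSiva arrays were above the 3 LSZ2 controls, while the LSZ4 arms overlapped. The shSiva minus control difference was 0.40 (SE 0.21) in LSZ2 and 0.13 (SE 0.20) in LSZ4. Crabp1, its paralog (chr9:54616192-54616251), lay between -8.17 and -6.52 and was well above background on 0 of 15 arrays.

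Aldh1a1, a retinal dehydrogenase (chr19:20717764-20717823) ran from 3090 to 85600 intensity units, highest in LSZ2. In LSZ2 its level was 5.83 with shGFP, 5.75 and 5.93 with shLacZ, 6.41 and 6.67 with shSiva1 and 4.05 and 3.83 with shSiva2. The LSZ4 signal was 2.85 and 3.02 with shGFP, 3.06 and 3.24 with shLacZ, 4.19 and 3.77 with shSiva1 and 2.74 and 2.82 with shSiva2. In each line both shSiva1 arrays were above all controls and both shSiva2 arrays below all of them. The fitted shSiva1 minus control difference was 0.85 (SE 0.25) and the shSiva2 minus control difference -1.05 (SE 0.25), so the mean over both hairpins, -0.10 (SE 0.41), describes neither.

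Aldh1a2, the dehydrogenase that is essential in the early embryo, was near background in controls (chr9:71143931-71143990). In LSZ2 it was at -5.24 with shGFP, -6.55 and -5.64 with shLacZ, -2.35 and -2.04 with shSiva1 and -3.43 and -3.65 with shSiva2. Its levels in LSZ4 were -5.60 and -5.97 with shGFP, -4.21 and -5.12 with shLacZ, -1.90 and -2.20 with shSiva1 and -4.90 and -5.47 with shSiva2. It cleared the background on 2 of the 7 controls (the LSZ2 shGFP array and 1 LSZ4 shLacZ array), on all 4 shSiva1 arrays and on the 2 shSiva2 arrays of LSZ2. All 4 shSiva1 arrays and both LSZ2 shSiva2 arrays were above the controls of their line, and the LSZ4 shSiva2 arrays lay within the LSZ4 control range. The fitted difference from control was 3.34 (SE 0.42) for shSiva1 and 1.10 (SE 0.42) for shSiva2. These sizes are not exact, since most controls were not well above background. With shSiva2 the difference was 2.27 in LSZ2 and 0.04 in LSZ4.

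Aldh1a3 (chr7:73535785-73535844) separated the lines. In LSZ2 it was at -2.55 with shGFP, -1.49 and -1.17 with shLacZ, -0.52 and -0.21 with shSiva1 and -0.63 and -0.40 with shSiva2. For LSZ4 the values were 2.73 and 2.52 with shGFP, 2.62 and 2.71 with shLacZ, 2.67 and 3.13 with shSiva1 and 2.95 and 2.85 with shSiva2. Every LSZ4 array was above every LSZ2 array. In LSZ2 all 4 shSiva arrays were above all 3 controls (difference 1.30, SE 0.26), and the shGFP control was more than 1 log2 unit below the shLacZ controls. In LSZ4 the arms overlapped (0.25, SE 0.24).

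Cyp26b1, which hydroxylates retinoic acid for removal, was lower on the shSiva arrays on average (chr6:84521952-84522011). In LSZ2 it was at 1.91 with shGFP, 1.99 and 2.05 with shLacZ, 1.44 and 2.07 with shSiva1 and 0.93 and 0.72 with shSiva2. The values in LSZ4 were 4.26 and 4.31 with shGFP, 3.05 and 3.62 with shLacZ, 1.94 and 2.27 with shSiva1 and 3.02 and 3.55 with shSiva2. Both shSiva2 arrays were below the controls in LSZ2, both shSiva1 arrays were below them in LSZ4, and each other pairing overlapped the controls. The fitted difference from control was -0.98 (SE 0.34) for shSiva1 and -0.86 (SE 0.34) for shSiva2. In LSZ4 the controls themselves differed, with both shGFP arrays above both shLacZ arrays.

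Rarb, the retinoic acid receptor gene that retinoic acid itself induces in many cells, was well above background on 0 of 15 arrays at each of its 3 probes. The probe at chr14:17263367-17263426 ran from -7.98 to -5.88, that at chr14:17264648-17264707 from -7.55 to -6.43 and that at chr14:17651424-17651483, annotated in the file to the beta 1 isoform, from -8.03 to -6.14. Its level thus has only an upper bound here, in both lines and under every hairpin.

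**Figure D2:**
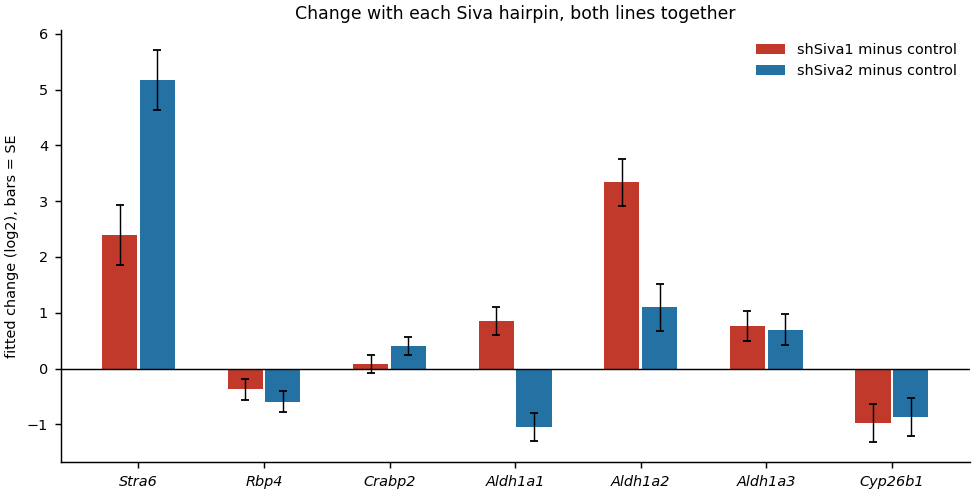
Fitted difference from control on the log2 scale (vertical axis) for each Siva hairpin in the 7 genes that passed the filter, both lines together; bars are means and error bars SE. Aldh1a1 was at 0.85 with shSiva1 and -1.05 with shSiva2, while Stra6 was at 2.40 and 5.17 and Aldh1a2 at 3.34 and 1.10. The Stra6 and Aldh1a2 sizes are not exact: Stra6 was well above background on 0 of 7 controls and Aldh1a2 on 2. With shSiva1 the Stra6 difference was 4.27 in LSZ2 and 0.67 in LSZ4, where neither side was well above background.

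The hairpins were set against each other, within 1 slide and vector, to see how far the members depended on which Siva hairpin was used. The choice of members did not use this comparison. It was made with shSiva minus control results known, which share these arrays, so the p-values are not fully independent of the choice. Stra6, Aldh1a1 and Aldh1a2 were called, 3 of the 7 genes, where 19.5% of all genes were (10.1% higher and 9.43% lower with shSiva2). Stra6 was higher with shSiva2 than with shSiva1 (2.77, SE 0.60, limma adjusted p = 0.00394), with all 4 shSiva2 arrays above all 4 shSiva1 arrays. It passed the filter through the shSiva2 arrays, which are 4 of the 6 with measured signal, and with no filter the difference was again 2.77 (limma adjusted p = 0.00777). Aldh1a1 was lower with shSiva2 (-1.90, SE 0.28, limma adjusted p = 0.000187), as was Aldh1a2 (-2.24, SE 0.47, limma adjusted p = 0.00298). For both dehydrogenases, each shSiva2 array was below each shSiva1 array of its line. Siva1 itself stood 0.84 higher with shSiva2 (SE 0.29, limma adjusted p = 0.0534), and its part in these differences was not tested.

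Differences that missed the threshold were 0.32 for Crabp2 (SE 0.18), 0.12 for Cyp26b1 (SE 0.38), -0.07 for Aldh1a3 (SE 0.30) and -0.22 for Rbp4 (SE 0.21), with limma adjusted p from 0.237 to 0.892. The Stra6 call was lost with normexp (0.87, adjusted p = 0.0894, the highest over its alternatives, whose lowest was 9.12e-06). Aldh1a7, a near-identical paralog of Aldh1a1 whose probe could share signal with it, differed in the opposite direction (1.63, SE 0.44, limma adjusted p = 0.0145).

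With a separate mean for each line and hairpin group, a model added after the data were seen, the hairpins were also compared within each line. Stra6 passed the filter on low signal only through shSiva arrays, most of them shSiva2, and its hairpin tests in this model were not repeated with no filter. Its p-values in this model are therefore not independent evidence. Stra6 differed by 1.01 in LSZ2 (SE 0.32, limma adjusted p = 0.0865), where 8.91% of genes were called, and by 4.52 in LSZ4 (SE 0.32, limma adjusted p = 7.77e-06), where 15.7% were. In LSZ4 this is at least 13.3-fold, by the approximate bound given above. The difference between these values, -3.51 (SE 0.45), passed the test (limma adjusted p = 0.018), as it did for 0.166% of all genes. Its size is not exact, since the LSZ4 shSiva1 arrays were not well above background: it was -1.97 with the floor (limma adjusted p = 0.00259, the lowest over its alternatives) and -0.40 with normexp, where it was not called (limma adjusted p = 0.787, the highest). The floor gives both LSZ4 shSiva1 arrays the same value, so the p-value with it does not measure their spread. The call was also lost without any 1 of the 4 LSZ2 shSiva arrays or of the 2 LSZ4 shSiva2 arrays, at -3.34 to -3.68. Aldh1a1 was lower with shSiva2 in both lines (-2.60 and -1.20, SE 0.21 each, limma adjusted p = 3.13e-05 and 0.00291). Aldh1a2 was so too (-1.35 and -3.13, SE 0.37 each, limma adjusted p = 0.0477 and 0.000212), in LSZ4 by at least 6.66-fold. Cyp26b1 was 1.18 higher with shSiva2 in LSZ4 (SE 0.29, limma adjusted p = 0.0174) and stood at -0.93 in LSZ2 (SE 0.29, limma adjusted p = 0.0763), and the difference between lines missed the threshold (-2.11, SE 0.40, limma adjusted p = 0.0994).

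The lines were compared next, again with no use of this contrast in the choice. Of the 7 genes 4 were called, where 21.7% of all genes were (7.12% higher and 14.6% lower in LSZ2) and the median gene was at -0.23. The count of all genes called, 4968, is unstable: it ran from 1319 without LSZ2 shLacZ replicate 1 to 12038 without LSZ4 shLacZ replicate 1, and only leaving out LSZ2 shSiva1 replicate 2, LSZ2 shSiva2 replicate 1 or LSZ4 shSiva2 replicate 1 kept it within 3571 to 5927. The same number of the 7 genes, 4, was called with each array left out. Rbp4 (2.22, SE 0.16, limma adjusted p = 3.79e-07) and Aldh1a1 (2.29, SE 0.41, limma adjusted p = 0.00229) were higher in LSZ2. Aldh1a3 (-3.82, SE 0.22, limma adjusted p = 2.03e-08) and Cyp26b1 (-1.60, SE 0.27, limma adjusted p = 0.00169) were higher in LSZ4. The difference in Aldh1a3 is 14.1-fold, and that in Aldh1a1 is 4.89-fold in the other direction. Stra6 (0.38, SE 0.67), Aldh1a2 (0.13, SE 0.54) and Crabp2 (-0.13, SE 0.15) missed the threshold, with limma adjusted p of 0.657, 0.849 and 0.471.

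Among the control arrays alone, the same 4 genes were called (Aldh1a3 -4.38, Rbp4 2.43, Aldh1a1 2.80, Cyp26b1 -1.83), where 5.98% of all genes were. Among the shSiva arrays Aldh1a3 (-3.34, SE 0.24, limma adjusted p = 1.54e-06) and Rbp4 (2.05, SE 0.22, limma adjusted p = 7.39e-05) were called, where 1.65% of all genes were. Aldh1a1 was then at 1.86 (SE 0.55, limma adjusted p = 0.163) and Cyp26b1 at -1.40 (SE 0.38, limma adjusted p = 0.105). This fit held 1 mean per line and arm, so differences between the Siva hairpins added to its spread. Within each Siva hairpin both LSZ2 arrays were above both LSZ4 arrays for Aldh1a1. For Cyp26b1 both LSZ4 arrays were above both LSZ2 arrays with shSiva2, and the lines overlapped with shSiva1. With each line and hairpin group counted as 1 sample, the limma adjusted p of the line difference was 0.0693 for Aldh1a1 and 0.0522 for Cyp26b1, the highest over their alternatives, and Aldh1a3 and Rbp4 stayed called.

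**Figure D3:**
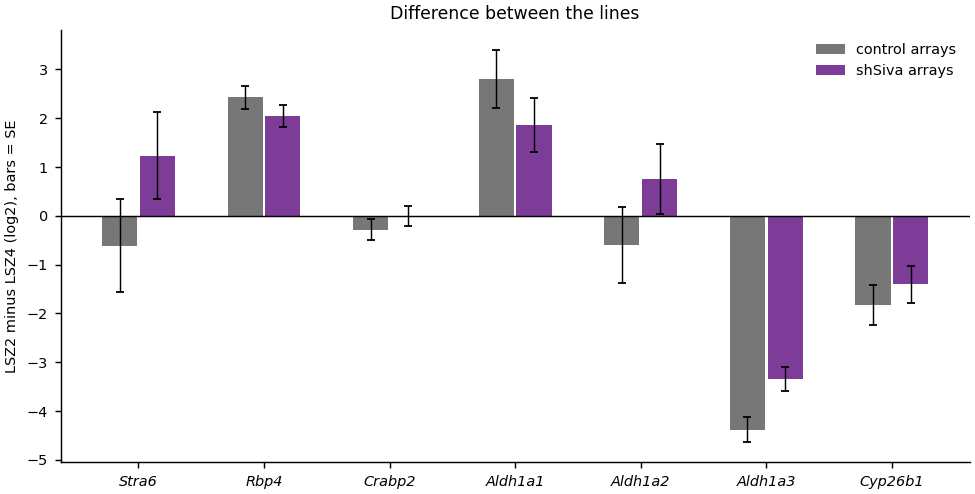
LSZ2 minus LSZ4 on the log2 scale (vertical axis) among the control arrays and among the shSiva arrays for the 7 genes; bars are fitted differences and error bars SE. Aldh1a3 was at -4.38 and -3.34 and Rbp4 at 2.43 and 2.05, while Stra6 and Aldh1a2 straddled 0.

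The difference of the shSiva effect between the lines was called for 0 of the 7 genes and 0 of all 22908 (limma). At an unadjusted p under 0.05 there was 1 of the 7, Aldh1a3 (1.04, SE 0.36, limma adjusted p = 0.893), and 526 of all. This model held 1 mean per line and arm, so differences between hairpins added to its spread and calls can be missed. With a separate mean per line and hairpin group Stra6 was called, as given below. Stra6 is given no size for this difference, since its 7 control arrays were all unmeasured. The control hairpins, shGFP minus shLacZ, differed in vector and selection. There limma called 0 of the 7 genes, against 1 of 22908 (0.00437%). At an unadjusted p under 0.05 there were 0 of the 7 and 2320 of all 22908. These differences ran from -0.41 for Aldh1a3 (SE 0.32) to 0.56 for Cyp26b1 (SE 0.40). The shSiva arrays were also set against each control, with the shSiva arrays shared; 20.5% of all genes were called against shGFP and 11.2% against shLacZ. Stra6 was at least 3.26-fold higher against shGFP and at least 3.89-fold against shLacZ. These bounds are approximate, since the shSiva mean includes the LSZ4 shSiva1 arrays, which were not well above background. On the log2 scale Aldh1a2 was at 2.34 and 2.14, Cyp26b1 at -1.24 and -0.68 and Aldh1a3 at 0.97 and 0.56. The Aldh1a2 sizes are not exact, since most controls were not well above background for it.

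To place the 9 genes within the pathway, 85 further genes in 6 lists were taken from textbook roles, and 63 passed the filter. Between shSiva and control arrays 10 of the 63 were called (15.9%), 6 higher and 4 lower, where 9.97% of all genes were; the median of the 63 was -0.02 and that of all genes -0.12. The lists were drawn up with results of this comparison known, so their counts and p-values are not independent evidence. Adh1 and Ttr, among the 6 higher, passed the filter on low signal only through the shSiva arrays. Without LSZ4 shLacZ replicate 1 the calls over all genes rose from 2285 to 3786. With each line and hairpin group as 1 sample, 1 of the 63 was called, Rdh10. The calls lay in transport and storage (1 higher and 1 lower of 7 tested), synthesis and recycling (4 higher and 1 lower of 18), receptors and delivery (2 lower of 11) and genes known to be induced by retinoic acid (1 higher of 14). None of 12 coregulators was called, nor the 1 tested breakdown gene, Cyp2s1 (-1.70).

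Rdh10, which oxidises retinol to retinal ahead of the ALDH1A enzymes, rose by 1.55 (chr1:16122062-16122121, SE 0.18, limma adjusted p = 8.59e-05). Its level was between 1.46 and 2.26 on the 7 control arrays and between 2.75 and 4.22 on the 8 shSiva arrays, with no overlap in either line. Adh1, an alcohol dehydrogenase that accepts retinol, was well above background on 6 shSiva arrays and 0 controls. By the approximate bound used for Stra6 it was at least 2.09-fold higher, with all 8 shSiva arrays averaged, unmeasured ones included. Since it was tested only because of the arrays with signal, no p is given. Rdh5 (0.78, SE 0.22, limma adjusted p = 0.0337) and Adh7 (0.46, SE 0.13, limma adjusted p = 0.0348) were higher too. Mean Rdh5 levels were -0.41 on control, -0.12 on shSiva1 and 0.81 on shSiva2 arrays, so most of its rise lay with shSiva2. Retsat, which saturates retinol, fell (-0.69, SE 0.19, limma adjusted p = 0.0298). Rdh5, Adh7 and Retsat lost the call with 8, 11 and 6 of the 15 arrays left out in turn.

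Rbp7, an intracellular retinol-binding protein, fell by 1.99 (chr4:148823823-148823882, fitted -1.99, SE 0.38, limma adjusted p = 0.00415). In LSZ2 its level was 2.35 to 2.97 on control and -0.18 to 1.58 on shSiva arrays. In LSZ4 it was 3.87 to 4.65 on control and 0.67 to 3.39 on shSiva arrays, so the arms were apart in each line. Ttr, which carries RBP4 in plasma, cleared the background on none of the 7 controls and on 6 of the 8 arrays with a Siva hairpin. By the same approximate bound, with all 8 averaged, it was at least 1.56-fold higher. No p is given, since it too was tested only because of the arrays with signal. The fitted Ttr difference was 1.42, and 0.29 with the floor; the liver markers were above background on 0 arrays.

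Among the receptors Rara fell (chr11:98836197-98836256, -0.79, SE 0.21, limma adjusted p = 0.0268), from 3.46 to 4.52 on control arrays to 2.68 to 3.82 on shSiva arrays, with overlap. A further Rara probe gave -0.71 (SE 0.26) and an adjusted p over probes of 0.0974, and the call was lost with 5 of the 15 arrays left out in turn. Nr2f2, an orphan receptor known to antagonise retinoic acid receptors, fell (-0.48, SE 0.11, limma adjusted p = 0.0123), a call lost with normexp (-0.40, limma adjusted p = 0.117) and with a random block per line and hairpin group (-0.47, limma adjusted p = 0.069); over the alternatives the limma adjusted p ran from 0.00269 to 0.211. Rarg (-0.01), Rxra (0.15), Rxrb (-0.42), Rxrg (-0.38) and Ppard (-0.02) missed the threshold, as did Nr2f1 (0.42). Of the genes known to be induced by retinoic acid, Lamb1, a laminin chain, rose (0.78, SE 0.18, limma adjusted p = 0.0123). Mean Lamb1 levels were 4.08 on control, 5.18 on shSiva1 and 4.5 on shSiva2 arrays. The list holds 26 genes, of which 12 were not tested, among them Hoxb1, Hoxa5, Hoxb4, Hoxb5 and Stra8, each well above background on 0 of 15 arrays.

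**Figure D4:**
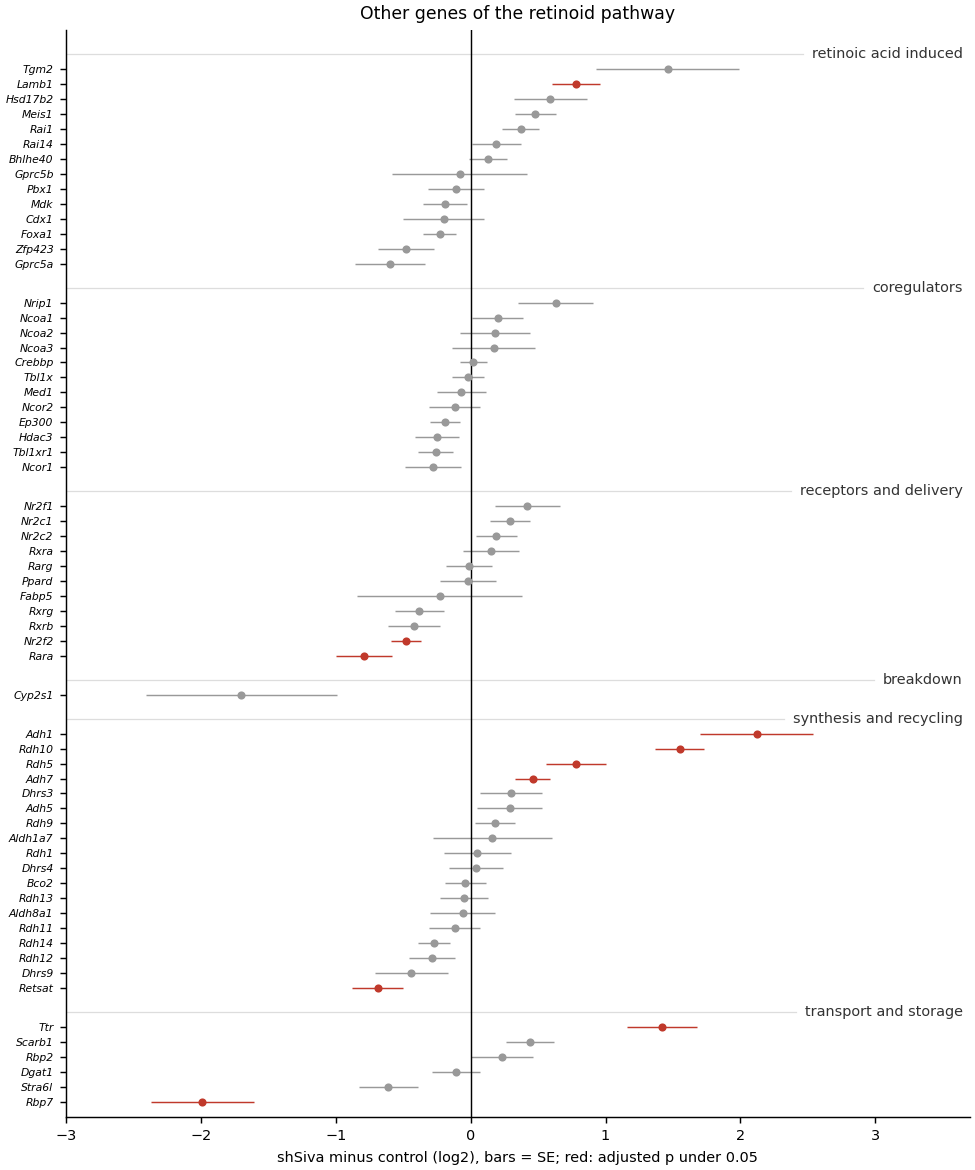
Fitted shSiva minus control difference on the log2 scale (horizontal axis) for other pathway genes in 6 lists (vertical axis); points are fitted values, bars SE, and red marks an adjusted p under 0.05. The 10 genes called are red, Adh1 and Ttr among them though they passed the filter only through the shSiva arrays, with Rdh10 at 1.55 and Rbp7 at -1.99.

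Between the hairpins 19 of the 63 pathway genes were called (30.2%), 9 higher and 10 lower with shSiva2, where 19.5% of all genes were. Genes named here because they differed most were chosen after their values were seen, so their p-values are not independent evidence. Cyp2s1, a cytochrome that metabolises retinoic acid, was 3.57 higher with shSiva2 than with shSiva1 (SE 0.35, limma adjusted p = 3.51e-06). Its fitted difference from control was -3.48 with shSiva1 (SE 0.31) and 0.09 with shSiva2 (SE 0.31). Fabp5, which carries retinoic acid to PPAR delta, was lower with shSiva2 (-3.13, SE 0.24, limma adjusted p = 3.00e-07). The size of this difference is not exact, since neither LSZ4 shSiva2 array was well above background for Fabp5. Tgm2, a transglutaminase induced by retinoic acid (-2.34, SE 0.43, limma adjusted p = 0.00107), and Gprc5b (-2.51, SE 0.24, limma adjusted p = 2.95e-06) were lower with shSiva2 too. Rbp7 was higher with shSiva2 than with shSiva1 (1.76, SE 0.27, limma adjusted p = 0.000224), with means of 2.39 and 0.63, both below the control mean of 3.6.

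Tgm2 was at 2.86 and 3.43 with shSiva1 in LSZ2 and at 2.51 and 2.85 in LSZ4. With shSiva2 it was at 0.72 and 0.78 in LSZ2 and at 0.22 and 0.58 in LSZ4. The LSZ2 shSiva2 arrays were below their controls, which ran from 1.14 to 1.73, and the LSZ4 ones were above theirs, from -1.51 to -0.03. Rdh10 was lower with shSiva2 than with shSiva1 (-0.72, SE 0.16, limma adjusted p = 0.00448) while both hairpins lay above control, and Rara was lower with shSiva2 (-0.72, SE 0.22, limma adjusted p = 0.0343).

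**Figure D5:**
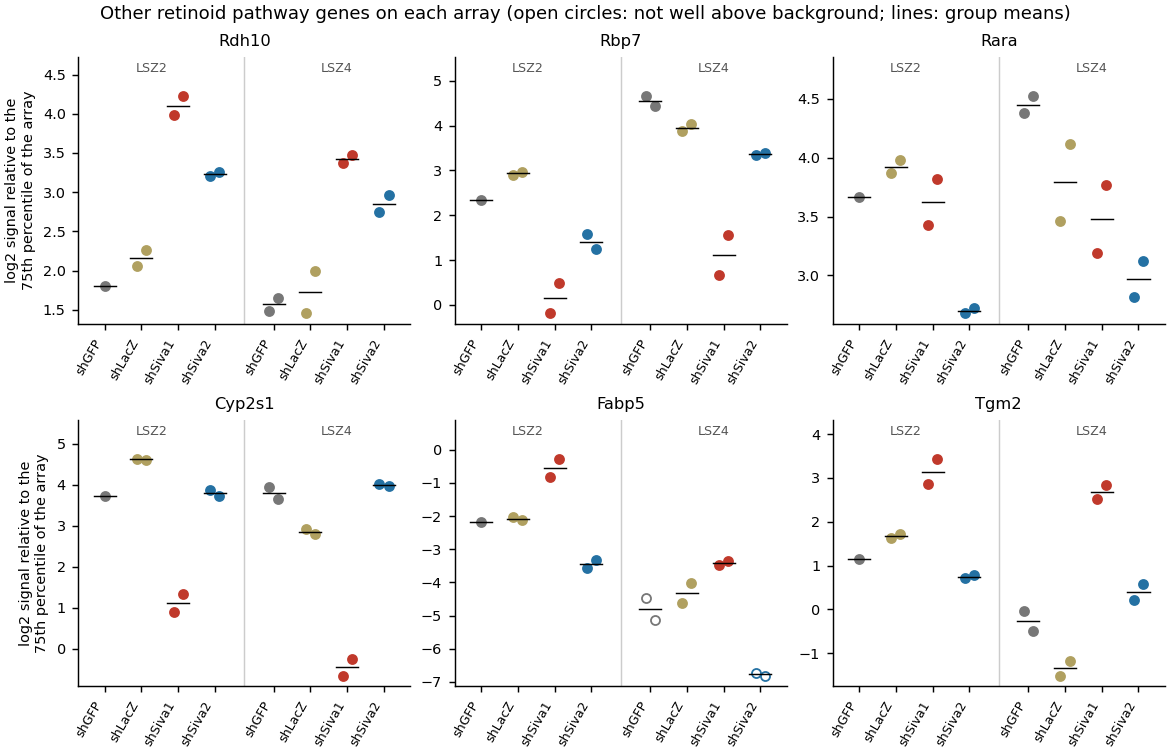
Log2 signal relative to the 75th percentile of the array (vertical axis) for 6 pathway genes on each array by line and hairpin (horizontal axis); open circles are not well above background and horizontal lines are group means. Rdh10 lay above 2.7 on each shSiva array and at or below 2.26 on each control array, and Tgm2 was highest with shSiva1 in both lines.

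Between the lines 17 of the 63 were called (27.0%), 8 higher and 9 lower in LSZ2, where 21.7% of all genes were, a share with the same instability. Nr2f1, an orphan receptor of the COUP family, was higher in LSZ2 (3.98, SE 0.24, limma adjusted p = 3.88e-08), as were Fabp5 (2.79, SE 0.61, limma adjusted p = 0.00894), both well above background on only 4 of 8 LSZ4 arrays, and Meis1 (1.42, SE 0.15, limma adjusted p = 2.24e-05). Rbp7 was higher in LSZ4 (-1.48, SE 0.38, limma adjusted p = 0.0216). Here too, genes named because they differed most were chosen after their values were seen. Of 7 transport and storage genes 5 were lower in LSZ2 and none higher, in the opposite direction to Rbp4. Between the control hairpins limma called 0 of the 63.

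The genes whose pattern was most like that of Stra6 over the 15 arrays, of 13561 compared, were Apol8 (Pearson r = 0.96, Spearman rho = 0.80), Ascl3 (0.95 and 0.94), Ssx2ip (0.94 and 0.84), Arhgap4 (0.94 and 0.91) and Lrp11 (0.93 and 0.90). These are descriptions over arrays that share lines, hairpins and slides. The 5 were picked by likeness to Stra6, itself highest in the shSiva2 groups, so a like pattern over the groups follows from the choice. Stra6 was not well above background on the controls or the LSZ4 shSiva1 arrays, so these correlations rest partly on unmeasured values. Each of the 5 had its highest group means in the shSiva2 groups: Ascl3 had group means of -0.23 in LSZ4 shSiva2 and -1.59 in LSZ2 shSiva2, against -4.03 and -2.76 with shSiva1. Lrp11 had means of -0.21 and 0.42 with shSiva2, against -1.47 and -0.86 with shSiva1.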

How the data were processed

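RNA from each sample was hybridised to a 1-colour Agilent array (design 028005, probe positions on mm9). The signal intensity values used here had, per the file headers, been background-subtracted in Agilent's software (Feature Extraction 10.7.3.1), and the authors deposited 1 scanner file per array. Each array was divided by the 75th percentile of its non-control probes, log2 was taken, and spots flagged as outliers were left out. The authors' deposited log2 value table, whose scale was found by setting it against the scanner values, served as an alternative. Of 55681 probes, 26582 were named through their accession and RefSeq, and the others kept the name in the file. Probes were tested (32188 of them) when 4 or more arrays showed them well above background and no more than 3 lacked a value. A gene with several such probes was given by the one with the highest mean level, which left 22908 genes.

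Linear models (lmFit, eBayes; limma 3.58.1, R 4.3.3) were run across all 22908 genes, and p-values were adjusted over all of them with the Benjamini-Hochberg procedure. A gene was called at an adjusted p under 0.05. The comparison of arms and that of lines used 1 model with line and arm; the hairpins were compared in a model with line and hairpin. The scripts were tested on simulated data. The members and gene lists were chosen with earlier results of these data known, and the comparison of shSiva with control arrays was among those results. The genes given by name were the 9 members, the pathway genes called in the comparison of arms, the receptors, the 5 genes most like Stra6, Siva1 and, chosen after their values were seen, the pathway genes that differed most between hairpins or lines. Alternatives covered the normalization, background correction, filter, probe choice, blocks and each array left out. Replicate numbers were not taken to pair the arrays, since not every pair of groups correlated above 0.1: same-numbered arrays of 7 groups gave correlations from -0.21 to 0.73 (median 0.23), with 14 of 21 pairs of groups above 0.1. The number of arrays limits the precision. Some genes of the lists are counted but not reported here by name.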

Additional observations from a re-analysis of the deposited data

Results flagged for a closer look

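The difference between the Siva hairpins in Stra6 signal was itself different between the lines. shSiva2 minus shSiva1 was 1.01 (SE 0.32) in LSZ2 and 4.52 (SE 0.32) in LSZ4, and the difference of these differences was -3.51 (SE 0.45, limma adjusted p = 0.018, 2 arrays per line and hairpin group). It was among 38 genes of 22908 that passed this test, which was not repeated with no filter on low signal. Stra6 passed that filter only through shSiva arrays, most of them shSiva2, so its p-value is not independent evidence. The model with a separate mean for each line and hairpin group was chosen after the data had been seen. On the LSZ4 shSiva1 arrays Stra6 was not well above background. The value for LSZ4 thus stands on an approximate bound of at least 13.3-fold, and the difference between lines has no exact size. It was -1.97 with a floor under all levels and -0.40 with normexp, where it was not called (limma adjusted p = 0.787, the highest over its alternatives, whose lowest was 0.00259). That lowest p-value came with the floor, which gives both LSZ4 shSiva1 arrays the same value and so does not measure their spread. Leaving out each array gave -4.07 to -2.95, and the call was lost without any 1 of the LSZ2 shSiva arrays or LSZ4 shSiva2 arrays.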

How the results depend on the processing

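Of the members called between the lines, Rbp4 and Aldh1a3 kept direction and call under each of the 13 other settings and with each of the 15 arrays left out; Aldh1a1 and Cyp26b1 lost the call under 1, with each line and hairpin group as 1 sample, which left 2 members called. The hairpin calls of Aldh1a1 and Aldh1a2 held under every alternative that tested them; requiring signal on all arrays left 1 member called, since Stra6 and Aldh1a2 were not tested. Stra6 lost its hairpin call with normexp (0.87, limma adjusted p = 0.0894, the highest over its 12 settings, of which the lowest was 9.12e-06).

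The shSiva minus control value of Stra6 was 1.52 with normexp and 1.70 with a floor at -4.57, and 3.47 to 4.33 with each array left out. The count of pathway genes called in that comparison, 10, became 5 with normexp, 5 with a random block per line and hairpin group, 18 with a separate mean for each group, 1 with each group as 1 sample (Rdh10), and 6 to 14 with each array left out (6 without LSZ2 shLacZ replicate 2 or LSZ4 shLacZ replicate 2). Over all genes the calls were 2285, against 831, 957, 4538 and 292 under those settings. The share of calls that were higher was 43.0%, and 49.9% with quantile normalization, 52.1% with median scaling and 56.0% with normexp; between the lines it was 32.9%, and 45.5% with quantile normalization. The 1 member whose knockdown effect differed between lines with a separate mean for each group was Stra6, whose control arrays were all unmeasured, and 0 did otherwise.

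Signs turned only in differences that were not called. Between lines, with normexp, Stra6 was -0.40 and Aldh1a2 -0.38; with each array left out Stra6 ranged from -0.16 to 0.70 and Aldh1a2 from -0.23 to 0.37. Between hairpins Aldh1a3 was 0.04 with normexp (-0.26 to 0.09 with each array left out) and Cyp26b1 ranged from -0.17 to 0.47. For shGFP minus shLacZ without the LSZ4 shGFP arrays, Stra6 was -0.98, Rbp4 -0.17, Aldh1a1 0.27, Aldh1a2 0.13 and Cyp26b1 -0.08 (its difference in knockdown effect -0.05). There, Rbp4 was -0.06 with quantile normalization and -0.01 with median scaling, with each group as 1 sample and with a separate mean per group; Stra6 was -0.04 in the last 2, and Aldh1a2 0.21 with normexp. Leaving out each array gave -0.05 to 0.90 for Stra6, -0.23 to 0.15 for Rbp4, -0.61 to 0.29 for Aldh1a2 and -0.69 to 0.18 for Aldh1a3. The cause was not tested.

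With the replicate number as a block, Stra6 was 3.78 and 10 pathway genes, 4 members between lines and 3 between hairpins were called; over all genes the calls for the arms were 2906. This block changed no call of a member.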
